A study of Mus musculus with 9 samples.

Results

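The testis of Spo11-/- mice was compared with that of wild-type mice at 15 days of age. The comparison rests on the 4 arrays labelled 15 day among the 9 arrays of the series, and the other 5 arrays carried testis of 12-day mice. Each array was a spotted cDNA array on which total RNA from 1 knockout and 1 wild-type whole testis, labelled with different dyes, competed for the same spots. Per the labels, wild-type RNA carried Cy5 and knockout RNA carried Cy3 on all 4 arrays, so no array had the dyes swapped. Per the design text, the arrays used different pairs of mice from 1 litter. The strain, the Spo11 allele and any other genotype were not given in the sources used here. The targeted gene itself has no annotated probe and offers no check of the labels, and log ratios hold no levels by which the tissue could be checked against its markers.

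Spo11 makes the programmed DNA double-strand breaks that start meiotic recombination. The broken ends are used to find and exchange strands with the homologous chromosome, and the synaptonemal complex then joins the homologs along their length during the pachytene stage. Spermatocytes of mice without Spo11 fail to synapse normally and arrest in meiotic prophase. In juvenile mice the first wave of spermatogenesis proceeds in near synchrony, so that spermatogonia, early spermatocytes and then pachytene spermatocytes appear one after another. Many genes whose proteins build the sperm tail, a modified cilium, are already transcribed in spermatocytes. In RNA from a whole testis, fewer cells of a type and less RNA per cell cannot be told apart.

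A value below is the deposited log2 ratio of an array, or the mean of the 4 arrays with its standard error (SE, n = 4 unless stated). The SE is the moderated one of limma, which draws the variance of each gene toward a value common to all features. For uneven genes it is smaller than the 4 values alone would give, and for very even genes larger. Its direction is not settled by the labels. If the ratio is Cy5 over Cy3, a value below 0 marks a gene higher in the knockout, and if it is knockout over wild type, a gene lower in the knockout. On probes, which are not independent replicates, the 15-day arrays correlated with each other at r = 0.38 to 0.60. They correlated at -0.38 to -0.33 with 12-day replicate 3 and at -0.25 to -0.11 with 12-day replicate 2, which had the same dye orientation. With the 12-day arrays of the opposite orientation they correlated at -0.07 to -0.01 (replicate 1), -0.03 to 0.03 (replicate 4) and -0.23 to -0.02 (replicate 5). Results are therefore worded by the side of 0 on which a value lies, and the opposite reading of the ratio would exchange the sides throughout. Because knockout RNA had 1 dye throughout, a difference in how well a probe takes up the 2 dyes cannot be told apart from a difference between genotypes.

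A gene was called changed when the mean of its arrays differed from 0 at an adjusted p under 0.05 (limma, Benjamini-Hochberg over all 12198 features with at least 3 values). Of the 6958 named genes tested, 501 (7.2%) passed below 0 and 281 (4.04%) passed above 0, together 11.2%. Of the 5240 features without exactly 1 listed gene, 579 passed above 0 and 154 below, so that over all features 860 lay above 0 (7.05%) and 655 below (5.37%), 12.4% in all. With each array's local median subtracted along the order of probes, 332 genes passed above 0 and 741 below. Changes were mostly small: the median fold of the called genes was 1.43 below 0 and 1.44 above 0. By at least 1.5-fold, 283 genes were called (4.07%), 177 below 0 and 106 above. By at least 2-fold, 43 genes lay below 0 and 12 above, and by at least 3-fold, 11 genes lay below and 1 above. The same sign on every array that measured them was seen for 772 of the 782 called genes. Of the 782, 759 had values on 4 arrays and 23 on 3.

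The arrays did not carry the changes equally. Over the 759 called genes with 4 values, the median size in the direction of the mean was 0.52, 0.59, 0.64 and 0.36 on replicates 1 to 4. Replicate 4 held the weakest value for 419 of these genes, and replicate 3 the strongest for 314. All probes of replicate 4 also spread least, with an SD of 0.306 against 0.393 to 0.469 on the other 3 arrays. Genes called without an array were then looked up on that array. Without replicate 3, 142 genes passed below 0, and 140 of them were also below 0 on replicate 3 (98.6%, against 55.6% of all genes), with a median of -0.85 there. Without replicate 4, 413 genes passed below 0, and 391 were below 0 on replicate 4 (94.7%, against 52.0% of all genes) at a median of -0.32. Above 0, 165 of 204 genes called without replicate 4 were above 0 on it (80.9%, against 46.3%) at a median of 0.22. The number of genes below 0 was 221, 189, 142 and 413 without replicates 1, 2, 3 and 4 in turn, and the number above 0 was 97, 97, 57 and 204. In a fit of both ages with 1 dye effect per probe, 763 of 9851 features passed at 15 days with the dyes as labelled, and 17 with the 15-day sign turned.

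Genes of the axoneme, the microtubule core of cilia and sperm tails, held the largest share of calls below 0 among lists of at least 10 tested members. Of 28 measured, 13 passed below 0 (46.4%, against 7.2% of all genes) and 3 above (10.7%, against 4.04%). The list median was -0.35 against -0.02 over all genes. Like the other lists, it was chosen with earlier results of these data known, so its share is no independent test. Cfap206, a radial spoke docking factor, had ratios of -3.28, -3.61, -2.68 and -1.91 on replicates 1 to 4, the lowest mean of the called genes. Rsph3a, a radial spoke gene, had -1.25, -1.86, -2.18 and -0.93 (mean -1.56, SE 0.19, adjusted p = 0.0025). Its partners Rsph1 and Rsph9 had means of -1.73 and -0.72. All 4 arrays lay below 0 for each of these genes, but Rsph9 was uneven, at -0.17 on replicate 1 and -1.35 on replicate 2.

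The nexin-dynein regulatory complex, which links neighbouring microtubule doublets, was represented by Ccdc65 and Drc1. Ccdc65 had -1.99, -2.31, -1.90 and -0.99, and Drc1 had -0.90, -1.66, -0.58 and -0.91 (mean -1.01, SE 0.16). Enkur, a sperm tail adaptor gene, had a mean of -0.88 (SE 0.13), Dnaaf2, needed to assemble dynein arms, -0.69 (SE 0.10), and the tektin gene Tekt2 -0.55 (SE 0.14). Dnaaf2 was nearly the same on every array, from -0.76 to -0.58, while Tekt2 was at -0.02 on replicate 4. Ak8, an adenylate kinase of cilia, had -1.67, -1.53, -1.07 and -0.25 (mean -1.13, SE 0.20), so replicate 4 again held the smallest value. Cfap36 passed at -0.43.

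Axonemal genes above 0 were Cfap47 at 0.81 (SE 0.12, n = 3), Ak7 at 0.80 (SE 0.14) and the centrin gene Cetn2 at 0.56 (SE 0.11). Cfap47 had 0.85, 0.84 and 0.75 on replicates 2 to 4 and no value on replicate 1. Ak7, an adenylate kinase like Ak8, had 1.18, 0.98, 0.69 and 0.35, the sign opposite to Ak8 on every array. Likewise Cetn2 had 0.48, 0.31, 0.78 and 0.68, whereas its autosomal relative Cetn4 had -1.60, -1.91, -1.73 and -1.21. Both Cfap47 and Cetn2 are X-linked. The outer-arm dynein heavy chain genes Dnah5 and Dnah9 and the ciliary transcription factor genes Rfx1, Rfx2 and Rfx3 did not pass, with means from 0.05 to 0.28. Axonemal calls below 0 numbered 11, 10, 10 and 14 without replicates 1 to 4 in turn.

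**Figure D1:**
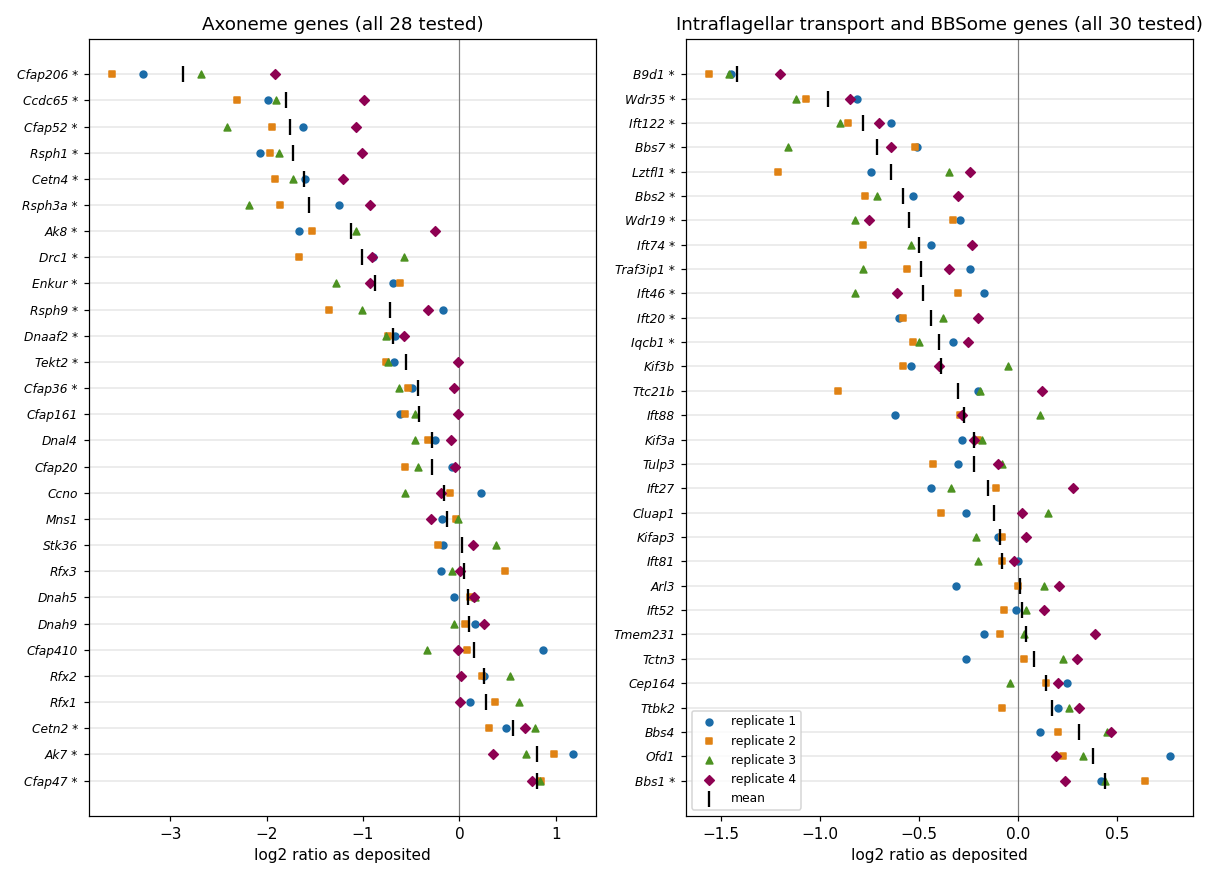
Log2 ratios as deposited (x axis) of all 28 axoneme genes tested (left) and all 30 genes of intraflagellar transport, the BBSome and the ciliary base (right), 1 symbol per array and a bar for the mean, with called genes starred. In the left panel 13 genes passed below 0 and 3 above, and replicate 4 (diamonds) often lies nearest to 0. In the right panel 12 passed below 0 and 1 above.

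Intraflagellar transport carries material along growing cilia, and the BBSome moves membrane cargo with it. In this list 12 of 30 genes passed below 0 and 1 above, with a median of -0.25. B9d1, a gene of the transition zone at the ciliary base, was the lowest, with -1.45, -1.56, -1.46 and -1.20 (mean -1.42, SE 0.11, adjusted p = 0.00058). Its 4 arrays lay closer together than those of most called genes. Among genes of the retrograde complex IFT-A, Wdr35 had a mean of -0.96 (SE 0.11), Ift122 of -0.78 (SE 0.10) and Wdr19 of -0.55 (SE 0.12), while Ttc21b at -0.30 did not pass. Wdr35 and Ift122 were each below 0 with both of their probes, at -1.15 and -0.78 and at -0.81 and -0.74.

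Of the anterograde complex IFT-B, Ift74 (-0.50), Traf3ip1 (-0.49), Ift46 (-0.48) and Ift20 (-0.44) passed, and Ift88 (-0.27), Ift27 (-0.15), Cluap1 (-0.12), Ift81 (-0.08) and Ift52 (0.02) did not. BBSome members lay on both sides of 0. Bbs7 had -0.51, -0.52, -1.16 and -0.64 and Bbs2 a mean of -0.58 (SE 0.11), with the BBSome regulator Lztfl1 at -0.64 (SE 0.16). Bbs1, another BBSome subunit, had 0.42, 0.64, 0.44 and 0.24 (mean 0.44, SE 0.11), above 0 on all 4 arrays. Subunits that did not pass, here and in later lists, were named after their values were seen. Calls below 0 in this list numbered 8, 5, 4 and 9 without replicates 1, 2, 3 and 4.

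Of 37 kinesin and cytoplasmic dynein genes, 6 passed below 0 (16.2%, against 7.2% of all genes) and 1 above (2.7%, against 4.04%). Dynlt1b, a light chain of cytoplasmic dynein, had -1.35, -1.60, -1.28 and -1.45 (mean -1.42, SE 0.10, adjusted p = 0.00058), with no array standing apart. It has near-identical copies in the mouse genome that a cDNA spot may not separate. Dync1li2, a light intermediate chain gene of the same motor, had a mean of -0.71 (SE 0.11) and the kinesin genes Kif24 and Kif9, both linked to cilia, means of -0.52 and -0.51. Kif1b, a kinesin of vesicle transport, passed above 0 at 0.45 (SE 0.11). Among 16 tubulin and tubulin-modifying genes, the polyglutamylase gene Ttll5 (-0.65), the folding cofactor gene Tbca (-0.52) and the carboxypeptidase gene Agbl5 (-0.42) passed below 0 and none above. Without replicates 1 to 4, the motor list had 3, 2, 2 and 4 calls below 0 and the tubulin list 1, 0, 0 and 3.

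Beyond the genes of largest change, ranks 13 to 30 among called genes below 0 were led by Rsph3a and Gstm5. Gstm5, a glutathione transferase gene, had -1.23, -1.79, -2.04 and -0.88 (mean -1.48, SE 0.18). Next to Dynlt1b and B9d1 they included Wfdc15a (-1.33), Ccdc136 (-1.31), Psmc3ip (-1.25), 9330102E08Rik (-1.19), Coprs (-1.18), Sorl1 (-1.18), Ddx4 (-1.16), Ccdc74a (-1.16), Ybx3 (-1.16), Ak8, D1Pas1 (-1.12), Mrgbp (-1.11), Qrich2 (-1.09) and Sccpdh (-1.09). Coprs encodes a partner of the arginine methyltransferase PRMT5, Ybx3 an mRNA-binding protein of spermatocytes and spermatids, Mrgbp a subunit of the NuA4 acetyltransferase, and Qrich2 a protein of the sperm tail. Only called genes with 1 sign on every array were ranked, so each of these 18 genes was below 0 on all 4 arrays by selection. Ybx3 varied most among them, from -2.02 on replicate 2 to -0.34 on replicate 4, and both of its probes lay below 0, at -1.38 and -0.95.

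Above 0, ranks 13 to 30 were smaller, from 0.93 to 0.81. The transcription factor gene Mef2d had 1.27, 1.01, 0.89 and 0.56 (mean 0.93, SE 0.13), the kinase gene Csk 0.64, 1.16, 1.04 and 0.83 (mean 0.92, SE 0.12) and the tight junction gene Cldn7 0.62, 0.89, 0.97 and 1.17 (mean 0.91, SE 0.12). By the same selection these were above 0 on all 4 arrays, and none of them had an array near 0. Gdf9, a growth factor gene best known from oocytes, had a mean of 0.86 (SE 0.11), though its 3 probes ranged from 0.24 to 0.94. The others were Dmbx1, D1Ertd471e, Slc39a4, Cnot1, Ammecr1l, Gm5891, Adam10, Pdlim5, Cpa1, Huwe1, Prex2, Cfap47, Txndc2 and Nlrp4g. Dmbx1, Cpa1, Cfap47 and Txndc2 had no value on replicate 1 and rest on 3 arrays. Dmbx1 was uneven, at 0.53, 0.56 and 1.67.

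**Figure D2:**
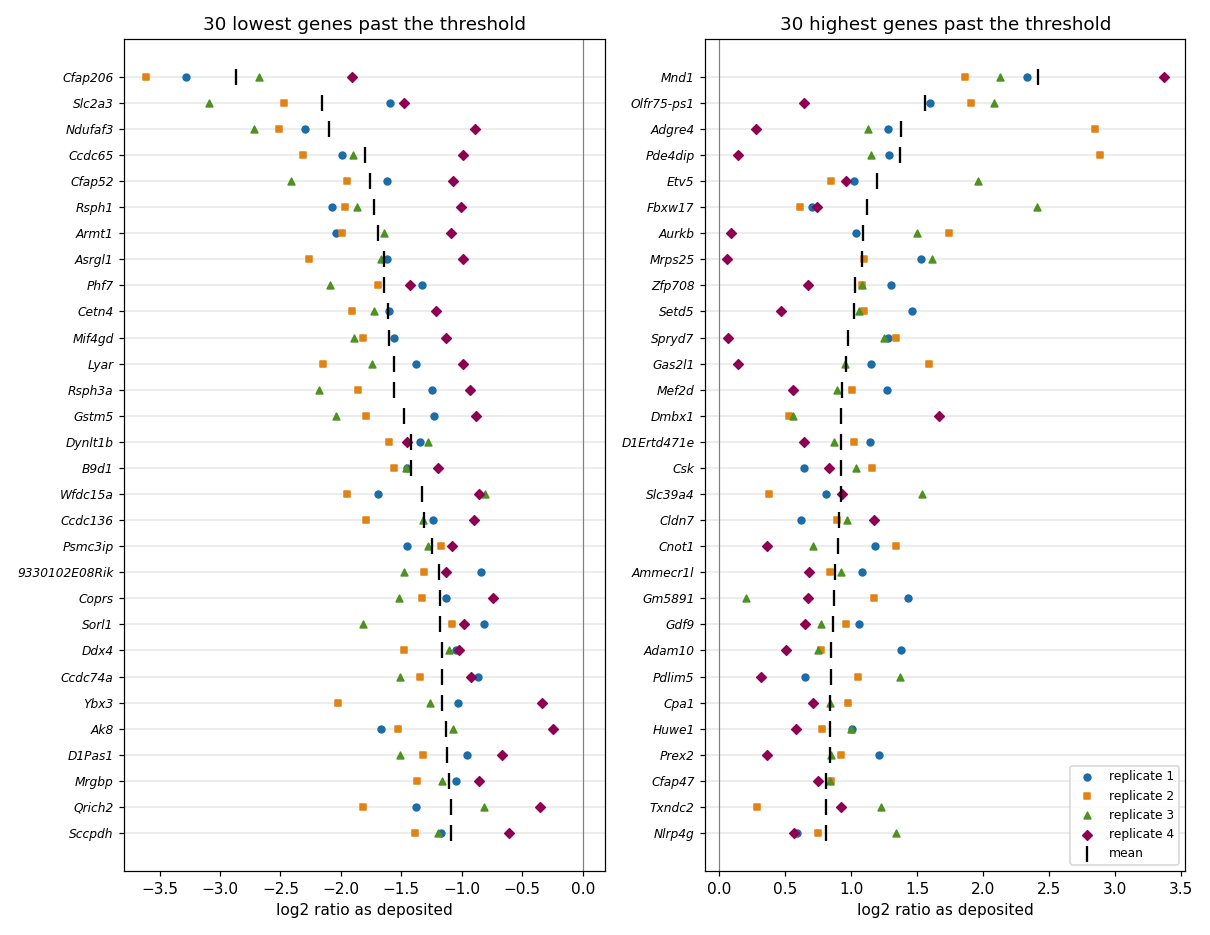
Log2 ratios as deposited (x axis) of the 30 lowest (left) and 30 highest (right) called genes with 1 sign on every array, 1 symbol per array and a bar for the mean. Means run from -2.87 to -1.09 on the left and from 2.42 to 0.81 on the right. Replicate 4 lies near 0 for several high genes, such as Mrps25 at 0.06 and Aurkb at 0.09.

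To show the sequence at the start sites of genes that moved together, promoter windows were taken from RefSeq on build GRCm38.p6, 250 bases before to 50 after each start. A window was found for 5632 tested genes, 420 of them called below 0 and 225 above. The 5 windows printed are from genes far below 0 that hold the X-box part or the MYB motif, and each runs from 180 bases before the start to 20 after, 5′ to 3′ on the gene's strand. Capitals mark the motif on either strand: GTTGCC (or GGCAAC), part of the X-box that RFX factors bind in ciliary genes, in the first 3, and TAACGG (or CCGTTA), bound by MYB factors such as the spermatocyte factor MYBL1, in the last 2. Other motifs searched are not marked: the Phf7 window also holds the GC box and the Ak8 window the STRA8 motif named with the shares of all windows. Asrgl1, an asparaginase gene, lies at chr19:9135547-9135746 on the minus strand, Lyar at chr5:38220302-38220501 on the plus strand and the translation gene Mif4gd at chr11:115612950-115613149 on the minus strand. Phf7, a chromatin reader gene, lies at chr14:31251296-31251495 on the minus strand and Ak8 at chr2:28699981-28700180 on the plus strand.
Asrgl1: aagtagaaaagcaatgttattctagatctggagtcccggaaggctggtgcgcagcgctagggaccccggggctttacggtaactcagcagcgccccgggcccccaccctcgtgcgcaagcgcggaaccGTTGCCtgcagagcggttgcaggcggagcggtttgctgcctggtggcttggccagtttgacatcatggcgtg
Lyar: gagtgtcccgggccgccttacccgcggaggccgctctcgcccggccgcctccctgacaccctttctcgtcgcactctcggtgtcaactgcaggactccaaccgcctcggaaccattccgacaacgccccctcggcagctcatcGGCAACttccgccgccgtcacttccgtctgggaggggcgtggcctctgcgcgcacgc
Mif4gd: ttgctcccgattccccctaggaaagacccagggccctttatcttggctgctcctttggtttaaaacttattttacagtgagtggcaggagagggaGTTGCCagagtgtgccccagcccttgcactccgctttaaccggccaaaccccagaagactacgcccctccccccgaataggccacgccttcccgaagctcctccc
Phf7: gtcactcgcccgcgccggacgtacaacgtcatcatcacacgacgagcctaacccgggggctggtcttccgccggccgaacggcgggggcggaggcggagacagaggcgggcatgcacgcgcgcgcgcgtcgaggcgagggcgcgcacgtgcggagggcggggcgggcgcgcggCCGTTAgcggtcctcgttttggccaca
Ak8: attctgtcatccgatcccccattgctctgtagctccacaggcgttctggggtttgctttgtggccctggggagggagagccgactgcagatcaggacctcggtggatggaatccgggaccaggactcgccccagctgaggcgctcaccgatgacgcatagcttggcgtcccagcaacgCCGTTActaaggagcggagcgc

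The motif began 52, 37 and 85 bases before the start in Asrgl1, Lyar and Mif4gd, and 7 and 2 bases before it in Phf7 and Ak8. In Ak8 it thus ran across the start. The ratios of these genes on replicates 1 to 4 were -1.62, -2.26, -1.67 and -0.99 for Asrgl1, -1.38, -2.15, -1.74 and -0.99 for Lyar, and -1.56, -1.82, -1.89 and -1.13 for Mif4gd. Phf7 had -1.33, -1.69, -2.09 and -1.43. These 4 genes were far below 0 on every array, with replicate 4 the weakest for the first 3. Ak8, with its values given among the axonemal genes, was at -0.25 on replicate 4.

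Over both strands of the 300-base windows, TAACGG was found for 7.14% of the genes called below 0, 3.11% of those above 0 and 4.44% of all tested genes, and in 2.76% of all windows of the table. Among the 143 genes below 0 by at least 1.5-fold it was found for 9.09%. GTTGCC was found for 17.6% of genes below 0, 14.2% above 0, 15.0% of all tested genes and 12.5% of all windows, and for 4 of the 12 axoneme genes below 0 that had a window. The cyclic AMP response core TGACGTC was found for 5.71% below 0 and 6.67% above 0 (6.23% of tested genes, 3.21% of windows). CNCCTCAG, the motif of the meiotic entry factor STRA8, was found for 8.10% and 9.33% (10.7% and 7.94%). The GC box GGGCGG was found for 66.9% and 64.4% (70% and 35.7%), and CCAAT for 39.5% and 46.2% (43.3% and 37.4%). None of these motifs contains another, and a match is a string of letters, not a bound site.

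Genes that act directly on meiotic breaks moved in both directions. Of 16 genes of break formation and strand exchange, 5 passed below 0 (31.2%, against 7.2% of all genes) and 2 above (12.5%, against 4.04%), with a median of -0.06. Mnd1 and Psmc3ip encode the 2 subunits of a complex that helps the recombinases pair strands. Mnd1 had 2.33, 1.86, 2.13 and 3.37 (mean 2.42, SE 0.21, adjusted p = 0.00061), while Psmc3ip had -1.45, -1.17, -1.28 and -1.08 (mean -1.25, SE 0.11, adjusted p = 0.00061). The subunits thus had opposite signs on all 4 arrays, and replicate 4 held the highest value of Mnd1 and the weakest of Psmc3ip. Each gene was measured by 1 probe. With replicates 1 to 4 left out in turn, the list had 3, 2, 2 and 3 calls below 0 and 2 above in each case.

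Brca2, which loads the recombinases, had -0.53, -1.0, -0.84 and -0.57 (mean -0.74, SE 0.11). Hsf2bp, a BRCA2 partner in meiosis, had a mean of -0.47 (SE 0.11), and Swi5 and Rad54b, accessory factors of strand exchange, had -0.50 and -0.44. Mei1, required to form breaks, lay above 0 at 0.63, 0.61, 1.07 and 0.62 (mean 0.73, SE 0.11). The end-processing genes Mre11a (0.04) and Rad50 (0.03) and the single-strand binding genes Rpa1 (0.13), Rpa2 (-0.10) and Rpa3 (-0.02) did not pass.

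Of 13 crossover and mismatch repair genes, the crossover factor Ccnb1ip1 (-0.58, SE 0.11) and the resolvase subunit gene Eme1 (-0.40, SE 0.10) passed below 0 and the exonuclease gene Exo1 (0.45, SE 0.10) above. Of 25 synaptonemal complex and cohesin genes, 4 passed below 0 and 1 above. Syce1, a central element gene, had -0.92, -0.86, -0.49 and -0.39 (mean -0.66, SE 0.12). Sycp1, the transverse filament gene, had -0.40, -0.56, -0.62 and -0.34, and its 3 probes were close, from -0.49 to -0.47. The cohesin gene Smc3 had a mean of -0.53 and Sun1, which tethers telomeres at the nuclear envelope, of -0.41, while Smc5 passed above 0 at 0.66 (SE 0.14). The axial gene Sycp3, at -0.11, -0.24, 0.87 and 0.40 (mean 0.23), did not pass. Of 17 genes of break sensing and checkpoint signalling, only Rad1 passed, with -0.71, -1.31, -0.57 and -0.26 (mean -0.71, SE 0.16), and the kinase genes Atm (0.13) and Atr (0.22) did not. Among 41 genes of excision and cross-link repair, Fancg was the lowest at -1.09 (SE 0.16).

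Among marker lists of germ cell stages, pachytene genes held 5 of 14 below 0 and none above (median -0.40), and spermatogonial genes 3 of 19 above 0 and none below (median 0.30). Over all genes, 7.2% passed below 0 and 4.04% above. The pachytene calls were Slc2a3, Rsph1, Lyar, Ybx3 and Ccnb1ip1. Of these, Rsph1 is also in the axoneme list and Ccnb1ip1 in the crossover list. Slc2a3 is also in the glucose transport list and Ybx3 in the RNA-binding list. The lists were chosen with earlier results of these data known. Slc2a3, Rsph1 and Lyar of the pachytene list and Etv5 of the spermatogonial list are among the largest changes. Neither the pachytene nor the spermatogonial share is therefore an independent test of a stage. Slc2a3, a glucose transporter gene, had -1.59, -2.47, -3.09 and -1.48, far below 0 on each array. Not every member was low: Aurkc (0.15), Plk1 (0.17) and Cdc25c (0.14) lay near 0. Of the spermatogonial genes, Etv5, a transcription factor gene of stem cell maintenance, had 1.02, 0.85, 1.96 and 0.96 (mean 1.20, SE 0.17), and Ccnd1 (0.42) and Uchl1 (0.36) also passed. Gfra1 (0.43), Cdh1 (0.44), Dazl (0.40) and Kit (0.16) did not pass, and Dazl differed in sign between arrays, at -0.22, -0.26, 1.43 and 0.67. Without replicates 1 to 4, pachytene calls below 0 numbered 6, 5, 3 and 7, and 1 spermatogonial gene passed in each case. Of 3 spermatid genes Txndc2 passed above 0, on 3 arrays, at 0.29, 1.23 and 0.92.

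The piRNA pathway silences transposons in germ cells by means of small RNAs. Of its genes, 7 of 22 were called below 0 (31.8%, against 7.2% of all genes) and none above (median -0.19). Ddx4, the germ cell helicase gene, had -1.05, -1.48, -1.11 and -1.02, and Gtsf1, a PIWI cofactor gene, -0.75, -1.07, -0.76 and -0.80. Hsp90aa1, a chaperone gene that helps load PIWI proteins, had -0.80, -1.13, -0.86 and -0.47 with 7 probes from -0.89 to -0.75. The Tudor domain genes Tdrd9 (-0.78, SE 0.13) and Tdrd1 (-0.66, SE 0.13), and Asz1 (-0.62, SE 0.14) and Gpat2 (-0.48, SE 0.11) on the mitochondrial side of the germ granule, also passed. Piwil2 (-0.09), the PIWI gene tested, and Mov10l1 (0.05) did not. Without replicate 3 the list had 4 calls below 0, and 7, 6 and 6 without replicates 1, 2 and 4. Of 35 germ cell RNA-binding and translation regulators, 4 passed below 0 (11.4%) and 1 above (2.86%, against 4.04% of all genes). Pabpc1, the cytoplasmic poly(A)-binding protein gene, had -0.78, -1.06, -1.36 and -0.31 (mean -0.88, SE 0.16), and Ptbp2 and Larp1 had -0.55 and -0.49. Fmr1, which is X-linked, lay above 0 at 0.96, 0.04, 0.52 and 1.01.

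**Figure D3:**
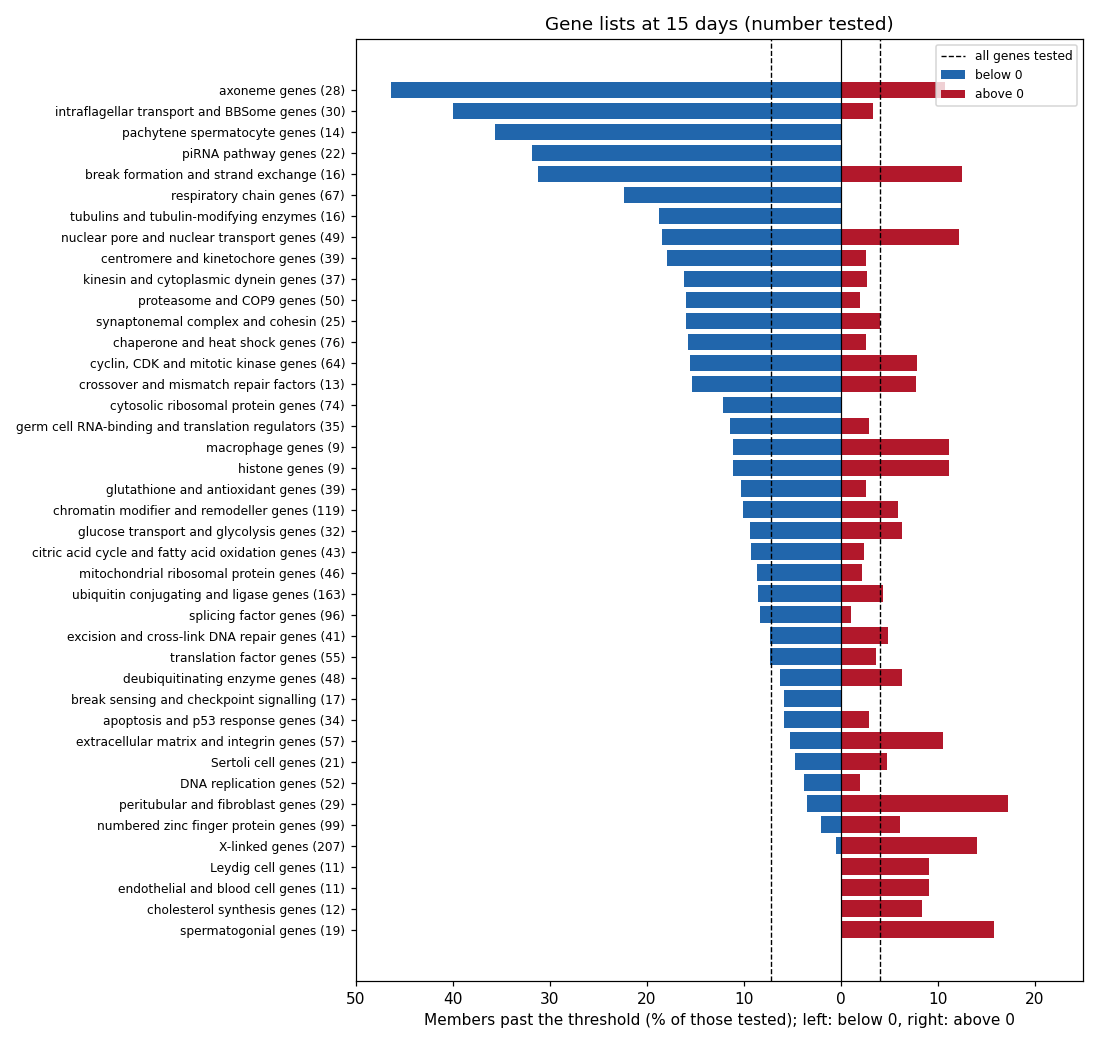
Share of each gene list's tested members (number in brackets) that passed below 0 (left, blue) and above 0 (right, red), with dashed lines at the shares over all genes tested, 7.2% below and 4.04% above. Axoneme genes reach 46.4% below 0, intraflagellar transport and BBSome genes 40%, and X-linked genes reach 14% above 0 and 0.483% below.

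Respiratory chain genes were called in 1 direction. Of 67, 15 passed below 0 and none above (22.4% against 7.2% of all genes), with a median of -0.25. The median on the arrays was -0.33, -0.32, -0.30 and -0.11. Ndufaf3, an assembly factor gene of complex I, had -2.30, -2.51, -2.72 and -0.89. The other calls were smaller. Bcs1l, which assembles complex III, had -0.77, -1.01, -0.87 and -0.40 (mean -0.76, SE 0.12), Cox6c of complex IV a mean of -0.65 (SE 0.13) and Sdhd of complex II -0.65 (SE 0.12). Cox16, an assembly factor gene of complex IV, had -0.64 (SE 0.12). The complex I subunit genes Ndufb5, Ndufb6, Ndufc1, Ndufs6 and Ndufv1 ranged from -0.56 to -0.46 and the ATP synthase genes Atp5b, Atp5e, Atp5j and Atp5j2 from -0.48 to -0.40. All 4 arrays were below 0 for each of these genes. Calls below 0 numbered 7, 6, 3 and 17 without replicates 1, 2, 3 and 4.

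Of 43 genes of the citric acid cycle and fatty acid oxidation, 4 passed below 0 (9.3%), among them Idh3b (-0.57, SE 0.12). The pyruvate carboxylase gene Pcx (0.50, SE 0.10) was the 1 above (2.33%). Among 32 genes of glucose transport and glycolysis, Slc2a3 and the pyruvate dehydrogenase complex genes Dlat (-0.42) and Pdhx (-0.36) passed below 0 (9.38%, against 7.2% of all genes). Kinase genes whose products inhibit that complex were the calls above 0 (6.25%, against 4.04%). Pdk3 was at 0.30, 0.35, 0.98 and 0.78 (mean 0.60, SE 0.13) and Pdk1 at 0.65 (SE 0.14, n = 3). Other genes of the complex and its phosphatases did not pass and lay on both sides of 0. They were Pdhb (0.27), Pdha1 (0.18), Pdp2 (0.36), Dld (-0.32) and Pdp1 (-0.10). Dlat rests on 3 probes that ranged from -1.14 to 0.18. Mitochondrial ribosomal protein genes had 4 of 46 below 0 (8.7%, median -0.18) and 1 above (2.17%), Mrps25. In the cytosolic ribosomal protein list 9 of 74 passed below 0 (12.2%, against 7.2% of all genes) and none above, with a median of -0.21. The ribosomal list had 1, 2, 1 and 6 calls below 0 without replicates 1 to 4.

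Among protein-folding genes, 12 of 76 chaperone and heat shock genes passed below 0 (15.8%, against 7.2% of all genes) and 2 above (2.63%, against 4.04%). Tcp1, Cct3, Cct5 and Cct7 encode subunits of the TRiC chaperonin, which folds tubulin and actin. Tcp1 had -0.51, -1.07, -0.84 and -0.80 (mean -0.81, SE 0.12), Cct7 a mean of -0.55, Cct5 of -0.46 and Cct3 of -0.37, and each gene rests on 2 to 5 probes. The other TRiC genes measured, Cct8 (-0.38), Cct2 (-0.35) and Cct4 (-0.10), did not pass. Dnajc15 was the lowest at -0.90 (SE 0.15), and Hspa4l, a germ cell HSP110 gene, had -0.59 (SE 0.13). Dnajc14 (0.62, SE 0.11) and the X-linked prefoldin gene Vbp1 (0.46, SE 0.13) passed above 0. Of 50 proteasome and COP9 genes, 8 passed below 0, led by the COP9 signalosome genes Cops3 (-0.72, SE 0.13) and Cops8 (-0.64, SE 0.11), and the X-linked assembly chaperone gene Psmd10 passed above 0 at 0.49 (SE 0.11). Calls below 0 numbered 8, 6, 3 and 9 for chaperones and 3, 2, 1 and 4 for proteasome and COP9 genes without replicates 1 to 4.

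Ubiquitin conjugating and ligase genes had 14 of 163 below 0 (8.59%) and 7 above (4.29%), near the shares of 7.2% and 4.04% over all genes. Fbxo43, an inhibitor of the anaphase-promoting complex that acts in meiosis, had -0.83, -1.52, -1.20 and -0.81 (mean -1.09, SE 0.13, adjusted p = 0.0028). Other F-box genes below 0 were Fbxw5 (-0.78), Fbxo36 (-0.74) and Fbxo15 (-0.66). The highest of the list, Fbxw17, rested mainly on replicate 3, with 0.70, 0.61, 2.41 and 0.74. Huwe1, Cul4b and Ube2a, which passed above 0, are X-linked. Ubr2, an autosomal ligase gene needed in spermatocytes, had 1.01, 0.69, 0.32 and 0.28. Among 48 deubiquitinating enzymes 3 passed in each direction (6.25% each), with Otud7b lowest (-0.84, SE 0.13) and the X-linked Usp9x highest (0.54, SE 0.10). The ligase list had 9, 5, 6 and 13 calls below 0 and 4, 4, 3 and 6 above without replicates 1 to 4.

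Cell cycle genes lay on both sides of 0. Of 64 cyclin, CDK and mitotic kinase genes, 10 passed below 0 (15.6%, against 7.2% of all genes) and 5 above (7.81%, against 4.04%), with a median of 0.00. Ccnb2, an M-phase cyclin gene, had -1.23, -1.31, -0.92 and -0.52 (mean -1.0, SE 0.14), and Cks2, needed for the first meiotic division, -0.97, -1.02, -0.73 and -0.29. The securin gene Pttg1 (-0.51), the spindle checkpoint genes Bub1b (-0.61) and Ttk (-0.48) and Cdc20 (-0.49) were below 0. Aurkb had 1.04, 1.74, 1.50 and 0.09, and the proliferation marker gene Mki67 a mean of 0.47 (SE 0.13). In the centromere and kinetochore list 7 of 39 passed below 0, among them the outer kinetochore gene Nuf2 with -0.56, -1.19, -0.65 and -0.45, and Cenpn (-0.56) and Cenpq (-0.54). Clasp2 was the one above, at 0.55 (SE 0.14). Of 52 replication genes, Fen1 (-0.46) and Pcna (-0.45) passed below 0 and Lig1 (0.57) above, 3.85% and 1.92%. Calls below 0 numbered 4, 3, 3 and 8 in the cyclin list and 4, 2, 1 and 3 in the kinetochore list without replicates 1 to 4.

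Nuclear transport genes were called in both directions, 9 of 49 below 0 and 6 above, with a median of -0.06. Over all genes, 7.2% passed below 0 and 4.04% above. Importin alpha genes differed in sign: Kpna2 had -0.40, -0.44, -0.66 and -0.50, while Kpna4 had a mean of 0.47 (SE 0.13) and Kpna7 of 0.52 (SE 0.12). Importin beta family members also differed, with Ipo4 (-0.47), Ipo5 (-0.46) and Tnpo3 (-0.55) below 0, and Ipo8 (0.60), Tnpo1 (0.48) and Xpo4 (0.49) above. The mRNA exporter gene Nxf1 lay at -0.44 (SE 0.12) and its X-linked paralog Nxf2, a germ cell gene, at 0.69, 0.40 and 0.88 on the 3 arrays that measured it (mean 0.66, SE 0.14). Without replicates 1 to 4, calls below 0 numbered 3, 2, 1 and 8 and calls above 0 numbered 1, 1, 1 and 5.

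Of 119 chromatin genes, 12 passed below 0 and 7 above, where 7.2% and 4.04% of all genes did. Arid2, a PBAF remodeller subunit gene, had -0.80, -0.93, -1.14 and -0.46 (mean -0.83, SE 0.12). Brdt, a testis bromodomain gene, had -0.47, -0.54, -0.53 and -0.41, even across arrays, and the Polycomb methyltransferase gene Ezh2 a mean of -0.37 (SE 0.10). Ezhip, an X-linked inhibitor of EZH2, lay above 0 at 0.82, 0.95, 0.62 and 0.67 (mean 0.76, SE 0.10). Kat2a at 0.81 (SE 0.14), Nsd2 at 0.67 (SE 0.13) and Setd5 at 1.02 (SE 0.15) were also above. Splicing factor genes had 8 of 96 below 0 (8.33%, near the 7.2% of all genes) and 1 above, the X-linked Rbmx (0.48), with a median of -0.17. Zinc finger genes named by number had 6 of 99 above 0 and 2 below, where 4.04% and 7.2% of all genes passed. Zfp708 was highest (1.03) and Zfp820 lowest (-0.82). Without replicates 1 to 4, chromatin calls below 0 numbered 5, 4, 2 and 13 and splicing calls below 0 numbered 0, 1, 1 and 6.

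Across the 19 autosomes 2.07% to 5.14% of genes passed above 0 and 4.57% to 9.19% below, with medians from -0.066 to -0.005. The X had 29 of 207 above 0 (14%) and 1 below (0.483%), and its median was 0.095, 0.21, 0.11 and 0.11 on the 4 arrays. Each of these 4 medians lay above that of every autosome on the same array. Besides genes named above, the X-linked calls of smallest p were Taf7l, a germ cell TFIID subunit gene, with 0.86, 0.49, 0.78 and 0.98, the creatine transporter gene Slc6a8 with 0.59, 0.56, 0.45 and 0.76, Tsr2 with 0.53, 0.57, 0.56 and 0.48, Yipf6 (mean 0.61) and Fam199x (mean 0.76). Tsr2, a ribosome maturation gene, was nearly the same on all arrays. Plac1 was the X-linked gene below 0, at -0.68, -0.71, -0.85 and -0.05. Calls above 0 on the X numbered 14, 16, 7 and 22 without replicates 1, 2, 3 and 4.

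**Figure D4:**
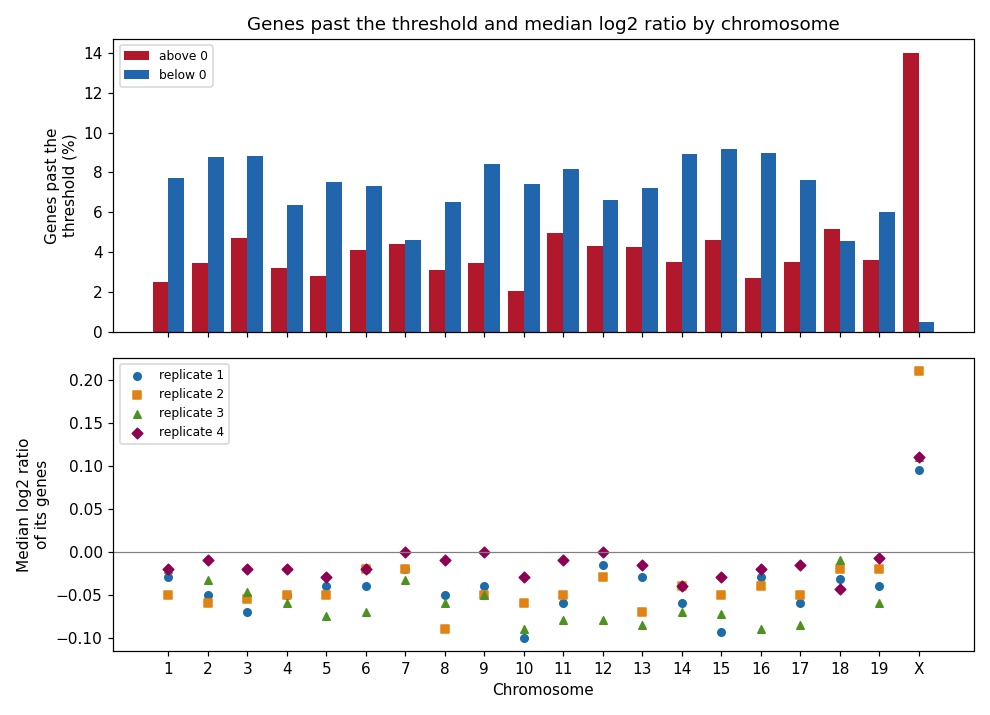
Share of the tested genes of each chromosome that passed above 0 (red) and below 0 (blue), top, and the median log2 ratio of its genes on each array, bottom. The X has 14% above 0 and medians from 0.095 to 0.21, while autosomes have 2.07% to 5.14% above 0. On the X the symbols of replicates 3 and 4, both at 0.11, coincide.

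Some X-linked housekeeping genes have autosomal copies, made by reverse transcription, that are transcribed in spermatocytes. The X-linked parents measured had 2 of 8 above 0, Cetn2 and Rbmx, and none below. Rbmx had 0.46, 0.42, 0.51 and 0.52, though its probes differed, at 0.15 and 0.80. Both autosomal copies measured lay below 0. Rpl39l, a copy of Rpl39, had -0.91, -1.28, -0.92 and -0.40 (mean -0.88, SE 0.14), and Cstf2t, a copy of Cstf2, had -0.38, -0.88, -0.73 and -0.46 (mean -0.61, SE 0.12). Their parents did not pass, with Rpl39 at -0.14 (SE 0.13) and Cstf2 at 0.06 (SE 0.10). Another pair was noticed after its values were seen. D1Pas1, an autosomal copy of the helicase gene Ddx3x, had -0.96, -1.32, -1.51 and -0.67 (mean -1.12, SE 0.14), and Ddx3x on the X had 0.40, 0.33, 0.66 and 0.36 (mean 0.44, SE 0.10). Copies and parents are similar in sequence, so a cDNA spot may bind both RNAs.

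The Y chromosome was represented by Eif2s3y, a translation factor gene needed by spermatogonia, with 0.58, 0.57, 0.46 and 0.64 (mean 0.56, SE 0.10, adjusted p = 0.010). Genes near Spo11 on chromosome 2 were also listed. Of the 20 tested genes on each side, 4 passed below 0 and 1 above (median -0.03): Bcas1 (-0.56), Atp5e (-0.44), Lsm14b (-0.40) and Mrgbp (-1.11) below and Ptgis (0.36) above. Over the whole of chromosome 2, 8.78% of tested genes passed below 0 and 3.44% above, and over all genes 7.2% and 4.04%.

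Markers of the other cells of the testis were read against the shares over all genes, 4.04% above 0 and 7.2% below. Of 21 Sertoli cell genes, the gap junction gene Gja1 (-0.37, SE 0.10) passed below 0 and Nr5a1 (0.43, SE 0.12) above, and of 11 Leydig cell genes Nr5a1, which both lists hold, was the one that passed. The list medians were -0.03 and -0.04. Among Sertoli genes Wt1 was at 0.46, Gata4 at -0.08 and Clu at 0.19, and among Leydig genes Cyp17a1 was at 0.22, Star at 0.22 and Cyp11a1 at -0.11, none of them called. Wt1 differed in sign between arrays, at -0.06, -0.07, 1.35 and 0.63. Peritubular and fibroblast genes had 5 of 29 above 0 (17.2%) and 1 below, with a median of 0.06. Igf1 had 0.40, 1.00, 0.89 and 0.14 (mean 0.61, SE 0.15) and Lamb1 0.46, 0.48, 1.19 and 0.29, while Lum, a stromal proteoglycan gene, had -0.26, -0.54, -0.97 and -0.50. Of 57 extracellular matrix and integrin genes, 6 passed above 0 (10.5%) and 3 below, with Itga9 highest at 0.63 (SE 0.10). Of 9 macrophage genes Lyz2 passed at -0.61 and Adgre4 at 1.38, and the rest, with means from -0.34 to 0.22, did not. Adgre4 had 1.28, 2.85, 1.13 and 0.28, nearly the values of probes of unrelated genes described below, so it is not read as a macrophage marker. Of 11 endothelial and blood cell genes Cdh5 passed at 0.32, 0.32, 1.20 and 1.29. Peritubular calls above 0 numbered 1, 0, 0 and 2, and matrix calls 2, 1, 1 and 4, without replicates 1 to 4.

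The list of 34 apoptosis and p53 genes had 2 calls below 0 (5.88%) and 1 above (2.94%), near the shares of 7.2% and 4.04% over all genes. Diablo, an inhibitor of caspase inhibitors, had -1.18, -1.03, -0.82 and -0.27 (mean -0.82, SE 0.15), the survivin gene Birc5 a mean of -0.40 (SE 0.10) and Btg2 of 0.39 (SE 0.11). The p53 targets Mdm2 (-0.08) and Ccng1 (0.21) did not pass. None of 7 retinoic acid pathway genes passed in limma or by the SAM-type statistic, and 1 of them, Stra6, had an unadjusted p under 0.05. Of 12 cholesterol synthesis genes Msmo1 passed (0.35, SE 0.10). Of 39 glutathione and antioxidant genes 4 passed below 0, among them Gstm5, Glrx3 (-0.59, SE 0.11) and Gpx4 (-0.43, SE 0.11), and 1 above, Txndc2.

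Adgre4 and Pde4dip, ranked next to each other among the highest called genes, had nearly the same 4 values, so probes within a root-mean-square distance of 0.45 from Pde4dip over the 4 arrays were listed, a criterion chosen after the values were seen. Of 13581 probes with 4 values, 12 lay that close. They were probes of Abhd4, Phf21a, Pde4dip, Adgre4, Prdm2 and Smug1 and 6 probes without a listed gene. On replicates 1 to 4 they ranged from 1.09 to 1.44, 2.07 to 3.08, 0.95 to 1.53 and -0.29 to 0.28. In the order of probes in the table, those of Pde4dip and Adgre4 were 3 rows apart, as were a run of 4 probes that ends with Prdm2 and Smug1. On every 15-day array, probes 3 rows apart correlated more (r = 0.35 to 0.49) than probes 2 rows apart (0.19 to 0.42). The means of Abhd4 (0.70), Phf21a (1.06), Prdm2 (0.56) and Smug1 (1.24) also passed, with adjusted p from 0.038 to 0.040, and the cause of the shared values was not tested.

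**Figure D5:**
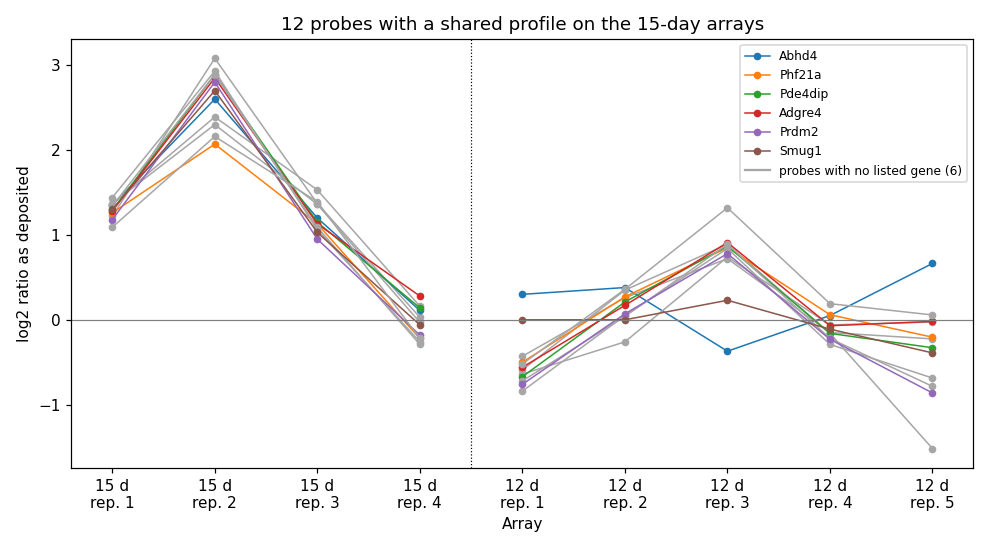
Log2 ratios as deposited (y axis) of the 12 probes close to Pde4dip on the 4 arrays at 15 days (left), and on the 5 arrays at 12 days (right), which were not used to choose them. At 15 days every probe peaks on replicate 2, from 2.07 to 3.08, and lies between -0.29 and 0.28 on replicate 4. At 12 days they lie from -0.37 (Abhd4) to 1.32 on replicate 3.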

How the data were processed

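RNA of Spo11-/- and wild-type testis was hybridised to spotted cDNA arrays. The values used are the log2 ratios deposited by the authors, 1 per probe and array. Per the design text, arrays were scanned on a GenePix 4000A scanner, quantified with GenePix 3.0, flagged by its defaults and median-centred, and genes were called with SAM at a 1% false discovery rate and 1.5-fold. The log base was taken as log2. The sources used here do not give which base the authors used, how background was treated or which dye is the numerator.

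Of 16128 probes, 9604 carried 1 gene symbol in the platform annotation, 213 carried several and the rest none. Probes of 1 gene were averaged into 7117 genes, with locations matched for 98.9%, and other probes were kept as single features. The 15-day arrays had values for 86.9% to 91.3% of probes. Signal intensities were not used here, so precision rests on the 4 arrays. The mean of each feature with at least 3 values was tested against 0 with limma 3.58.1 (R 4.3.3; lmFit and eBayes, two-sided), adjusted by Benjamini-Hochberg over all features. The p-values and SEs measure the spread between these arrays, moderated over features by eBayes. Tested on simulated data for the 15-day comparison over 12198 features, this recovered 82 of 100 features changed by a log2 of 1 and 40 of 100 changed by 0.585, with 2 false calls. These counts describe the simulated data and give no rate of false calls on the real arrays. There, knockout RNA had 1 dye throughout and probes near each other in the table correlated.

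The genes named are the 30 lowest and 30 highest called genes with 1 sign on every array, the 4 of smallest p in each list, X-linked and Y-linked genes by p, and pairs of retrogene and parent. Other genes were named after their values were seen. The comparison, the gene lists and the named genes were chosen with earlier results of these data known, and 8 genes that symbol patterns had taken by mistake were removed from lists after their values were seen. Replicates carry no number in the labels and were numbered in order of deposit. Alternatives changed the number of arrays required, the normalization, the handling of probes, the threshold, the statistic, the arrays fitted and the arrays left out. Promoter sequences came from RefSeq (GRCm38.p6), and the array's own gene coordinates were not used.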

Additional observations from a re-analysis of the deposited data

Results flagged for a closer look

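For 9 named genes, 1 array of the 4 stood apart from the other 3 by Dixon's test, which chance meets in about 1 of 20 groups. With 170 called genes named, several such genes are due by chance alone. Replicate 3 held the high value of Etv5 (1.96), Fbxw17 (2.41) and Mei1 (1.07). Replicate 2 held the low value of Gtsf1 (-1.07). Replicate 4 held the value nearest to 0 for Kif1b (0.22), Sdhd (-0.23), Idh3b (-0.18) and Spryd7 (0.07). Replicate 1 held the value nearest to 0 for Zfp820 (-0.44).

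The same test marked the array medians of 6 lists. Replicate 1 was apart for break sensing and checkpoint genes, at 0.12, and for numbered zinc finger genes, at -0.04. Replicate 2 was apart for X-linked genes, at 0.21, for the X-linked parents of testis retrogenes, at 0.20, and for kinesin and cytoplasmic dynein genes, at -0.17. Replicate 4 was apart for respiratory chain genes, at -0.11. No cause of these values was tested.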

How the results depend on the processing

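Called features numbered 1515, with 860 above 0 and 655 below, and called genes 281 above and 501 below. Requiring 2 or 4 arrays, quantile or deviation scaling, local centring, the median of probes and robust estimation kept each of these 5 counts within 1.5 times. Local centring called 1222 of the 1515 features again. Testing probes singly gave 438 genes above 0. An adjusted p under 0.01 with 1.5-fold left 242 features (121 above, 121 below; genes 32 and 97), and the SAM-type statistic 103 (51 above, 52 below; genes 16 and 43). A joint fit of both ages without a dye term gave 882 features, 383 above 0, and 168 genes above 0. With a shared dye term it gave 763 (352 above, 411 below; genes 160 and 320) as labelled, and 17 (8 above, 9 below; genes 3 and 7) with the 15-day sign turned. Leaving out 1 array gave 372 to 1185 features, 194 to 635 above 0 and 178 to 550 below, with 57 to 204 genes above 0 and 142 to 413 below. The lowest counts came without replicate 3. Of 170 named called genes, local centring kept 158 past the threshold and the SAM-type statistic 41, and 75 dropped below it without replicate 3. List medians moved by more than the spread between arrays for 14 lists in the joint fit as labelled and for 4 under local centring. With probes tested singly, 1 probe of Dlat was at 0.18 and 1 of Adamts19 at 0.09, while the lowest probes of these genes were at -1.14 and -1.03. In the joint fit with the sign turned, Mef2d was at -0.15, Prex2 at -0.14, Zfp84 at -0.19 and Zfp708 at -0.0. The cause of these changes was not tested, except that a stricter threshold leaves fewer calls by construction. Each array's ratio already sets 1 knockout against 1 wild-type sample, so the test against 0 is itself paired. No paired analysis was possible beyond that, because the labels carry no replicate numbers by which to block arrays.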

Other observations

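Of the 782 called genes, 264 were in a gene list and 518 in none. Among those in none were Armt1, an acidic residue methyltransferase gene, with -2.04, -1.99, -1.64 and -1.09, and Sorl1, a sorting receptor gene, with -0.82, -1.08, -1.82 and -0.98. Above 0 they included Olfr75-ps1, an olfactory receptor pseudogene, with 1.60, 1.91, 2.08 and 0.64, and Nlrp4g, of an oocyte-expressed gene family, with 0.59, 0.75, 1.34 and 0.57.

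Among smaller lists, 4 of 55 translation factor genes passed below 0, such as Paip1 (-0.50) and Eif3e (-0.48), and 2 above, with Eif4a1 at 0.39. These shares, 7.27% and 3.64%, are near the 7.2% and 4.04% of all genes. Of 9 histone genes H3f3b (-0.56) passed below 0 and H1f8 (0.40), an oocyte linker histone gene, above.

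Several probes of 1 gene were measured for 158 of the called genes. In 144 of them the probe means had 1 sign, and in 14 they had both.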
